A study of Mus musculus with 20 samples.

Results

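The 41 genes described here encode the enzymes of cholesterol synthesis, the proteins that control them, the enzymes that make, elongate, desaturate and activate fatty acids, and a few proteins of cholesterol storage and efflux. They were taken as a fixed list of mouse symbols, and all 41 had a row in the deposited expression tables, which hold 17104 genes in at least 1 table and 13850 genes in every table. 18 members are enzymes of the sterol pathway, 5 control sterol regulatory element-binding proteins (SREBPs), 3 handle stored or exported cholesterol, 12 make or modify fatty acids and 3 activate them. The sterol arm below is the 18 enzymes, and the fatty acid arm is the 15 enzymes of synthesis and activation.

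Cells build cholesterol from acetyl-CoA through mevalonate, farnesyl diphosphate, squalene and lanosterol, and build fatty acids from the same acetyl-CoA through malonyl-CoA. When sterols run low in the endoplasmic reticulum, SCAP escorts the SREBPs to the Golgi, where they are cleaved and become transcription factors. INSIG proteins hold SCAP back when sterols are plentiful. SREBP-2, the product of Srebf2, acts mainly on sterol genes, and SREBP-1c, a product of Srebf1, mainly on fatty acid genes. In prostate epithelium and prostate cancer cells, androgens are known to raise both programs, and enzalutamide blocks the androgen receptor.

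The libraries came from MycCaP-Bo cells, a murine prostate cancer line driven by Myc, carrying luciferase and the fluorescent protein iRFP, and selected in vivo for homing to bone. The cells were injected into the heart of FVB/N mice 4 to 6 weeks old, and CD45- iRFP+ cancer cells were sorted from bone metastases, with cells of 3 mice pooled in each library. There were 4 groups of 5 libraries. Naive tumors received vehicle. Resist tumors received enzalutamide at 30 mg/kg by daily gavage for 18 days. Resist-Mac tumors received the same enzalutamide course and, in its last 4 days, clodronate liposomes at 1 mg/mouse, which deplete macrophages. Naive-Mac tumors received clodronate liposomes and no enzalutamide. All groups thus shared 1 cell line, 1 host strain and 1 sort. Naive and Resist libraries share a labelled batch and a table, whereas Resist-Mac and Naive-Mac libraries each have a batch and a table of their own. Batch and condition cannot be told apart in any comparison that involves a macrophage-depleted group.

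Values are FPKM, which count sequenced fragments relative to transcript length and to the mapped fragments of the library. That scaling is meant to let levels be set side by side between genes. Between tables, though, changes rose with transcript length, as described below. Depth cannot be read from FPKM, because the tables give no counts. The sum of FPKM over all genes was 481161 to 530961 in Naive and Resist libraries, 617494 to 761510 in Resist-Mac libraries and 882276 to 1040440 in Naive-Mac libraries. Resist libraries 3 and 4 listed 14056 and 13981 genes above 0, and the other libraries of Naive and Resist listed 13062 to 13528. Within each group, log2 levels of any pair of libraries correlated with Pearson's r of at least 0.957 across genes, and none was a copy of another. The column names of Resist-Mac libraries 2 and 3 share a code, as do those of 4 and 5 and those of Naive-Mac 1 and 4. What the codes mean is not given in the sources used here, and the fits treat the 5 libraries of a group as independent. Pearson's r was 0.986 within each of the 2 Resist-Mac pairs and 0.957 to 0.977 between them. It was 0.982 for Naive-Mac 1 and 4, within the range of 0.974 to 0.992 over all Naive-Mac pairs. Of the epithelial markers, Krt8, Krt19, Cldn3 and Cldn4 averaged at least 1 FPKM in each group, whereas Krt18, Cdh1 and Cldn7 were near 0 in each group. Epcam was near 0 in Naive-Mac and had no value in the other groups. Endothelial markers summed to at most 2.55 FPKM in any library, and osteoblast and stromal markers to at most 23.9 FPKM.

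The members were first examined for the sequences in front of them, since SREBPs bind sterol regulatory elements and work beside the CCAAT-binding factor NF-Y. RefSeq promoter windows (mouse assembly GRCm38.p6, 250 bases before to 50 after the annotated start) matched 34 of the 41 members, and the expression tables rest on the older build mm9. The windows shown belong to 3 sterol enzymes and 2 fatty acid enzymes among the members whose values per library are given for Resist vs. Naive. They are not the largest changes with a window: Acsl1 and Acsl4 changed more than Fasn, and the windows nearest to their 5′ ends held no CCAAT. Capitals mark CCAAT on either strand, which on the opposite strand reads ATTGG, and each sequence runs 5′ to 3′ along the gene.
Idi1, chr13:8885356-8885655, plus strand: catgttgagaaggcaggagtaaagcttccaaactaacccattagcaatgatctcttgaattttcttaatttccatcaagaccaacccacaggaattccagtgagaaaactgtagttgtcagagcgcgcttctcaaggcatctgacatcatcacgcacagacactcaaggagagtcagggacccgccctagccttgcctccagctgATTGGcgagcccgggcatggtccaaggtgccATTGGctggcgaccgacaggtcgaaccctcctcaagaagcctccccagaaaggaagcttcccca
Msmo1, chr8:64733529-64733828, minus strand: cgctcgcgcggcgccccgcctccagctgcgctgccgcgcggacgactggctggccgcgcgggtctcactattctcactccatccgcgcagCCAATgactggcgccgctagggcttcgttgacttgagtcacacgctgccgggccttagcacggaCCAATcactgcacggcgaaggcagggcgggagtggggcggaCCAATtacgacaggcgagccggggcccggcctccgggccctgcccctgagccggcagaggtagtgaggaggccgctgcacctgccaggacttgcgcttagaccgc
Cyp51, chr5:4104648-4104947, minus strand: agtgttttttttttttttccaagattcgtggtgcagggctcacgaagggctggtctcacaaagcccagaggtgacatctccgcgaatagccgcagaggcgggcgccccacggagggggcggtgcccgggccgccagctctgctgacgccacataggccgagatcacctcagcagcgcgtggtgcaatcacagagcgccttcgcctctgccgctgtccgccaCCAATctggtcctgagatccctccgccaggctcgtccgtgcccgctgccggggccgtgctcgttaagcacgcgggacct
Fasn, chr11:120824498-120824797, minus strand: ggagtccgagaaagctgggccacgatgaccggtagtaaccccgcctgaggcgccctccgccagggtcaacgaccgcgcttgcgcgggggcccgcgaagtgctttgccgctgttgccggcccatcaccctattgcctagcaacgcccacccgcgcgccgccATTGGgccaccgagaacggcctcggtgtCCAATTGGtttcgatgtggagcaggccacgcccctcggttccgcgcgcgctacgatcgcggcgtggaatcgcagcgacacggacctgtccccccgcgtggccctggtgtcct
Acsl3, chr1:78657575-78657874, plus strand: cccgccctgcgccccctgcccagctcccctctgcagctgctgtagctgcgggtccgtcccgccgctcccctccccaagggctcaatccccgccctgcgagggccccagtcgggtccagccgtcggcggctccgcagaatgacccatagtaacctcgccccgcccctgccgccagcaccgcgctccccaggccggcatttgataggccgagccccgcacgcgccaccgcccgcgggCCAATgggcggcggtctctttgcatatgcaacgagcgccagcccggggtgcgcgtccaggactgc

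CCAAT stood in the windows of 14 of 15 sterol enzymes (93.3%), compared with 41.1% of all 27025 genes that had a window. It stood in 5 of 9 fatty acid synthesis genes (55.6%), in 2 of 3 activation genes and in 4 of 5 SREBP control genes. The 3 sterol windows printed above held it between 14 and 160 bases before the start: Msmo1 carried 3 copies, Idi1 carried 2 and Cyp51 carried 1. The strict sterol regulatory element TCACNCCAC, searched on both strands, occurred in 1.44% of all genes with a window and among the members only in Hmgcs1 and Acsl1, so none of the printed windows held it. These matches describe letters in a short window and are no evidence of binding.

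Resist vs. Naive asks how resistant tumors differ from untreated ones, and it is the comparison in which both groups share a batch. The sterol arm was lower in Resist. A gene was called when limma's adjusted p over all 10119 genes tested was below 0.05 and the fold change of FPKM + 1 was over 1.5. Of the 17 sterol enzymes tested, 6 were called lower and none higher, whereas 1.11% of all genes were called lower and 5.25% higher. Of the 14 fatty acid enzymes tested, none was called in either direction by limma, although 9 had an unadjusted p below 0.05. Of these, 6 had an adjusted p below 0.05 but a fold change below 1.5, 4 of them higher and 2 lower in Resist. A noise-based probability called 1 of the 14, Fads1. The median log2 change was -0.36 over the sterol enzymes and -0.06 over the fatty acid enzymes, compared with 0.03 over all genes. All 17 sterol enzymes had a log2 change below 0, and 8 of the 14 fatty acid enzymes did. The p-values measure the spread between these pooled libraries. In bulk libraries, fewer cells of a type and less RNA per cell cannot be told apart.

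**Figure D1:**
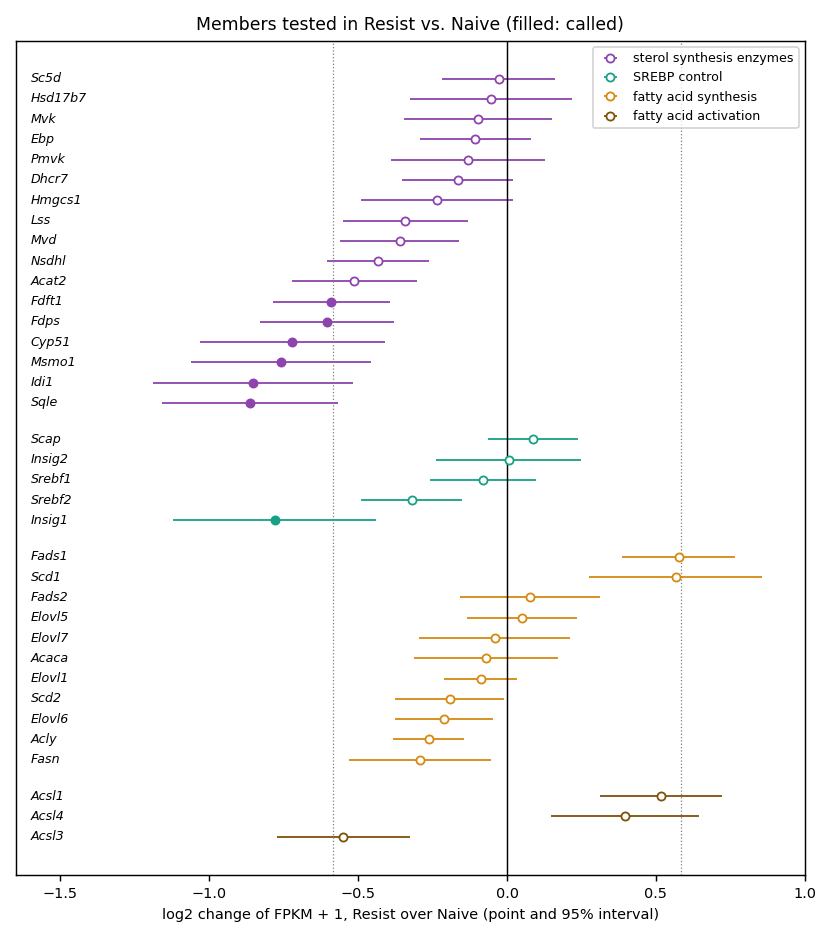
Log2 change of FPKM + 1, Resist over Naive (x axis), for the 36 members tested, one per line, as the limma estimate with its 95% interval. Filled points were called, dotted lines mark a fold change of 1.5 in each direction, and the 7 filled points, 6 sterol enzymes and Insig1, all lie on the left.

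The first called enzymes stand in the early, isoprenoid part of the pathway. Idi1 encodes isopentenyl-diphosphate isomerase, which makes the allylic unit for prenyl chains. It measured 24.9, 22.0, 26.7, 23.6 and 25.1 FPKM in Naive libraries 1 to 5 and 12.8, 18.2, 8.89, 10.9 and 16.7 FPKM in Resist libraries 1 to 5. The groups did not overlap, and Resist libraries 3 and 4 were the lowest. The change was -0.85 (SE 0.16, adjusted p = 0.00350) on the log2 scale. Fdps, farnesyl diphosphate synthase, measured 77.4, 89.3, 75.6, 97.0 and 91.9 FPKM in Naive and 54.8, 65.3, 49.0, 48.6 and 65.3 FPKM in Resist, again without overlap, with a change of -0.60 (SE 0.10, adjusted p = 0.00256).

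Farnesyl diphosphate is committed to sterols by squalene synthase, the product of Fdft1. Fdft1 measured 12.3, 13.0, 12.3, 15.7 and 13.32 FPKM in Naive and 8.19, 9.13, 7.70, 7.63 and 9.92 FPKM in Resist, so every Resist library was below every Naive library. Its change of -0.59 (SE 0.09, adjusted p = 0.00132) lay just past the fold threshold. Sqle, squalene epoxidase, an oxygen-dependent and rate-limiting step, had the largest fall of the members. It measured 43.3, 46.2, 49.6, 54.0 and 49.9 FPKM in Naive and 26.7, 31.4, 21.5, 19.7 and 34.6 FPKM in Resist, a change of -0.86 (SE 0.14, adjusted p = 0.00151). In mean level, Resist tumors held 0.551 times the Sqle of Naive tumors, and the same ratio was 0.551 for Idi1.

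The enzymes that demethylate lanosterol fell as well. Cyp51, lanosterol demethylase, measured 27.4, 27.7, 28.9, 31.9 and 28.6 FPKM in Naive and 16.6, 20.7, 13.32, 13.2 and 24.2 FPKM in Resist, with a change of -0.72 (SE 0.14, adjusted p = 0.00556). Msmo1, methylsterol monooxygenase, measured 50.8, 56.3, 52.6, 62.4 and 57.2 FPKM in Naive and 29.8, 40.0, 25.9, 26.4 and 44.5 FPKM in Resist, with a change of -0.76 (SE 0.14, adjusted p = 0.00367). Neither gene overlapped between groups, and in both Resist library 5 was the nearest to the Naive libraries.

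The other 11 sterol enzymes tested did not pass both thresholds. Acat2, the cytosolic thiolase at the head of the pathway, had a change of -0.51 (adjusted p = 0.00432). Nsdhl, a sterol dehydrogenase that works with Msmo1, had -0.43 (adjusted p = 0.00345), Mvd, mevalonate diphosphate decarboxylase, had -0.36 (adjusted p = 0.0184), and Lss, lanosterol synthase, had -0.34 (adjusted p = 0.0285). These 4 had an adjusted p below 0.05 but a fold change below 1.5. Acat2, Mvd and Nsdhl did not overlap between groups, which made 9 of the 17 sterol enzymes, compared with 4.34% of all genes that were lower in Resist without overlap. The remaining 7 enzymes, Hmgcs1, Mvk, Pmvk, Hsd17b7, Ebp, Sc5d and Dhcr7, had changes between -0.24 and -0.03 with 95% intervals that included 0. Sc5d and Ebp act in the last steps of the pathway: Sc5d averaged 13.4 ± 0.841 FPKM (SD, n = 5) in Naive and 13.2 ± 1.72 FPKM (SD, n = 5) in Resist, and Ebp averaged 21.9 ± 0.919 FPKM (SD, n = 5) and 20.4 ± 2.70 FPKM (SD, n = 5). Tm7sf2, a sterol reductase, averaged below 1 FPKM in both groups and was not tested.

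**Figure D2:**
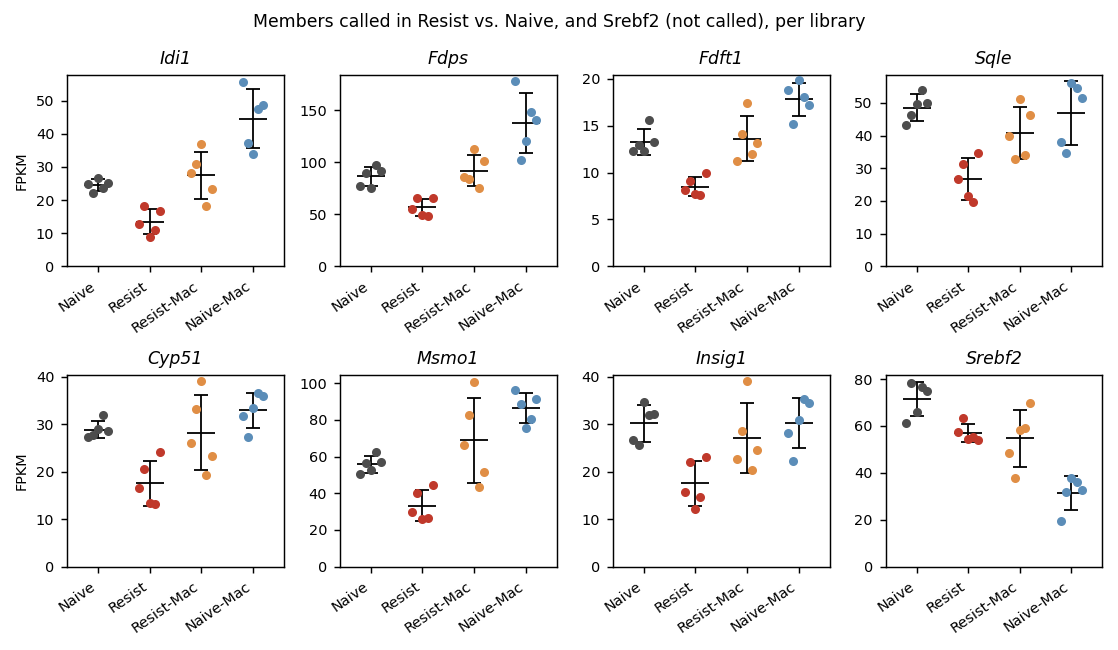
FPKM (y axis, from 0) of the 7 members called in Resist vs. Naive and of Srebf2, in the 4 groups of 5 libraries. Points are libraries in replicate order, and the bar is the mean ± SD. In the 7 called members every Resist point lies below every Naive point, and the Resist-Mac and Naive-Mac groups lie higher than Resist in mean.

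Among the control genes, only Insig1 was called. Insig1 encodes an endoplasmic reticulum protein that retains SCAP, and it is itself a target of SREBP. It measured 26.7, 25.6, 34.7, 31.9 and 32.1 FPKM in Naive and 15.8, 22.0, 12.2, 14.7 and 23.1 FPKM in Resist, with no overlap and a change of -0.78 (SE 0.16, adjusted p = 0.00579). Srebf2 measured 61.4, 78.2, 66.1, 76.8 and 75.0 FPKM in Naive and 57.4, 63.6, 54.3, 55.4 and 53.9 FPKM in Resist. Its change of -0.32 (SE 0.08, adjusted p = 0.0152) had an adjusted p below 0.05 but a fold change below 1.5, and the groups overlapped. Srebf1 measured 28.3, 33.7, 26.2, 33.3 and 32.7 FPKM in Naive and 30.7, 26.3, 29.4, 31.2 and 27.6 FPKM in Resist, which overlapped widely, with a change of -0.08 and a 95% interval of -0.26 to 0.10. Scap and Insig2 had changes of 0.09 and 0.01, with intervals of -0.06 to 0.24 and -0.24 to 0.25. Soat1, which esterifies cholesterol for storage, and the efflux transporters Abca1 and Abcg1 averaged below 1 FPKM in Naive and Resist and were not tested.

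The fatty acid arm held genes with changes in both directions, and their sizes stayed below the fold threshold. Fads1, a desaturase of polyunsaturated fatty acids, measured 35.4, 40.5, 40.8, 39.8 and 47.2 FPKM in Naive and 61.3, 66.5, 55.7, 68.6 and 54.3 FPKM in Resist. All Resist libraries were above all Naive libraries, and its change of 0.58 (SE 0.09, adjusted p = 0.00125) missed a fold change of 1.5 by a small margin. Scd1, a stearoyl-CoA desaturase, measured 4.02, 4.83, 5.38, 6.03 and 4.67 FPKM in Naive and 9.03, 5.63, 9.81, 7.77 and 7.41 FPKM in Resist, where 1 Resist library lay within the Naive range, with a change of 0.57 (SE 0.13, adjusted p = 0.0127). Scd2, its far more abundant paralog, measured 469, 518, 478, 557 and 475 FPKM in Naive and 483, 389.6, 381, 453 and 485 FPKM in Resist, with a change of -0.19 (SE 0.08, adjusted p = 0.127). How reads that both paralogs share were assigned is not given in the sources used here.

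The enzymes that carry carbon from citrate to palmitate had small changes. Acly, which splits citrate into acetyl-CoA, averaged 56.0 ± 2.94 FPKM (SD, n = 5) in Naive and 46.4 ± 1.15 FPKM (SD, n = 5) in Resist without overlap, a change of -0.26 (adjusted p = 0.00640). Acaca, acetyl-CoA carboxylase, had a change of -0.07 with a 95% interval of -0.31 to 0.17. Fasn, fatty acid synthase, measured 86.0, 103, 107, 105 and 85.4 FPKM in Naive and 87.1, 59.3, 80.9, 84.97 and 85.8 FPKM in Resist, and Resist library 2 stood well below the other Resist libraries. Its change was -0.29 (SE 0.11, adjusted p = 0.0833). The elongases Elovl1, Elovl5, Elovl6 and Elovl7 had changes between -0.21 and 0.05, and Fads2 had 0.08, all with an adjusted p above 0.05. Acacb, the mitochondrial carboxylase, averaged below 1 FPKM and was not tested.

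The 3 acyl-CoA synthetases, which activate fatty acids, differed in direction. Acsl3, found on lipid droplets and the endoplasmic reticulum, measured 9.78, 10.1, 11.4, 10.0 and 9.21 FPKM in Naive and 7.01, 6.24, 6.18, 5.35 and 8.41 FPKM in Resist without overlap, a change of -0.55 (SE 0.10, adjusted p = 0.00407). Acsl1 averaged 137 ± 14.2 FPKM (SD, n = 5) in Naive and 198 ± 27.0 FPKM (SD, n = 5) in Resist, also without overlap but in the other direction, a change of 0.52 (SE 0.09, adjusted p = 0.00367). Acsl4, which prefers arachidonate, averaged 14.2 ± 0.7997 FPKM (SD, n = 5) and 19.3 ± 3.91 FPKM (SD, n = 5), a change of 0.40 (SE 0.11, adjusted p = 0.0316). None of the 3 reached a fold change of 1.5 on the scale of FPKM + 1, which understates the change of genes at low levels. With a pseudocount of 0.1 in place of 1, Acsl3, Fads1 and Scd1 passed it, and after the correction for transcript length described below Acsl3 did. In the whole fatty acid arm, 2 genes were higher and 2 were lower in Resist without overlap of the groups, compared with 8.45% of all genes higher and 4.34% lower.

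**Figure D3:**
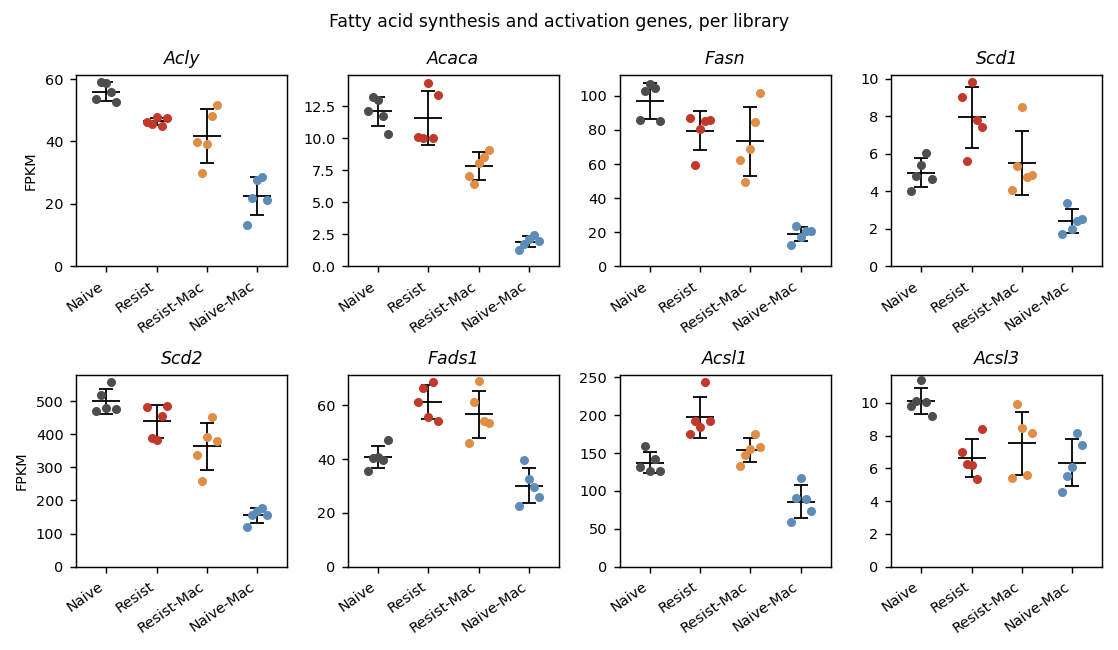
FPKM (y axis, from 0) of 8 members of the fatty acid arm in the 4 groups of 5 libraries, drawn as points with the mean ± SD. Naive and Resist points lie close together for Acaca and Scd2, Resist points lie above Naive for Fads1 and Acsl1 and below for Acsl3, and Naive-Mac points are lowest for Fasn, Acaca and Scd2.

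Averaged over members, the arms separated in the same way. The mean of log2(FPKM + 1) over the 17 sterol enzymes was 4.28 to 4.45 in Naive libraries and 3.77 to 4.11 in Resist libraries, with no overlap. The mean over the 14 fatty acid enzymes was 4.76 to 4.87 in Naive and 4.75 to 4.90 in Resist, with nearly full overlap. Naive library 4 was the highest Naive library for 5 of the 7 called members, and Resist library 5 was the highest Resist library for 6 of them. For each of the 7, the lowest Resist library was library 3 (3 members) or library 4 (4 members). Without these 2 libraries together, an alternative chosen after seeing the data, 2 sterol enzymes were still called, Idi1 with -0.60 and Sqle with -0.64. Cyp51, Msmo1, Fdps, Fdft1 and Insig1 then had changes of -0.49, -0.56, -0.47, -0.50 and -0.56, each with an adjusted p below 0.05 and a fold change below 1.5.

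Transcripts of other cell types also differed between these libraries. The summed FPKM of 8 neutrophil markers, among them S100a8 and S100a9, was 170 to 1226 in Naive and 59.9 to 580 in Resist, which overlapped, and 7 of the 8 averaged at least 1 FPKM in both groups, none of them called. Within Resist, the sum was 468 and 580 in libraries 3 and 4 and 59.9 to 214 in the other 3. Library 5, the highest Resist library for 6 of the 7 called members, was at 214, above libraries 1 and 2 at 72.2 and 59.9. Within Naive, it was lowest in library 4, at 170. Of 10 macrophage markers, Lyz2 and Cd68 averaged at least 1 FPKM in Naive and Resist, whereas Adgre1, Csf1r, C1qa, C1qb, C1qc, Mrc1, Cd163 and Siglec1 were near 0, and the sum was 16.1 to 94.7 in Naive and at most 50 in Resist. Of the adipocyte markers, only Fabp4 was above 1 FPKM, with sums of 73.0 to 164 and 109 to 176, and Adipoq and Plin1 were near 0. The sum of 8 epithelial markers, with Epcam counted as 0 where it had no value, was 624 to 914 in Naive and 345 to 618 in Resist. The groups did not overlap, and of the 4 detected epithelial markers Cldn4 was called lower with a log2 change of -0.98 (adjusted p = 0.0451). Hba-a1, a red cell globin, was called higher, with 0.78 (adjusted p = 0.0245), and the erythroid sum was 53.9 to 107 in Naive and 106 to 199.8 in Resist. The part of any of these in the change of the sterol enzymes was not tested.

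**Figure D4:**
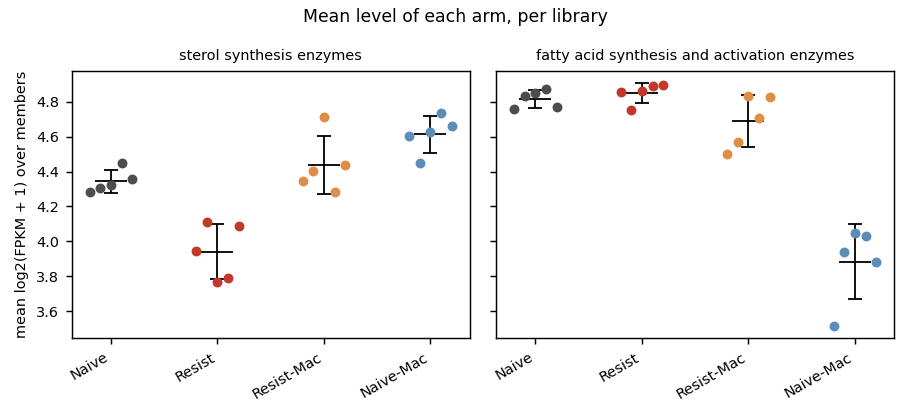
Mean of log2(FPKM + 1) (y axis) over the 17 sterol enzymes tested in all comparisons (left) and the 14 fatty acid enzymes (right) per library, with the group mean ± SD. Resist is the lowest group on the left and overlaps Naive on the right, where Naive-Mac is the lowest. The y axis does not start at 0.

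Genes of lipid metabolism outside the 41 members were read from a list of 28, of which 26 were tested. In Resist vs. Naive, 3 were called higher and 1 lower, with a median log2 change of 0.02. Mylip, a ubiquitin ligase that sends the LDL receptor for degradation, rose from 4.91 ± 0.963 FPKM (SD, n = 5) to 11.7 ± 2.53 FPKM (SD, n = 5), a change of 1.09 (adjusted p = 0.000928). Plin2, a coat protein of lipid droplets, rose from 5.97 ± 1.03 FPKM (SD, n = 5) to 11.1 ± 3.66 FPKM (SD, n = 5), with overlap and a change of 0.75 (adjusted p = 0.0269). Hacd2, a dehydratase of fatty acid elongation, rose from 35.7 ± 2.55 FPKM (SD, n = 5) to 56.4 ± 5.22 FPKM (SD, n = 5), a change of 0.64 (adjusted p = 0.000297). Dgat2, which completes triglyceride synthesis, fell from 6.10 ± 0.448 FPKM (SD, n = 5) to 3.62 ± 1.10 FPKM (SD, n = 5), a change of -0.65 (adjusted p = 0.0108). Of 10 androgen-responsive genes, 4 were tested. Steap4, a metalloreductase, and Abcc4, an efflux transporter, rose by 1.59 (adjusted p = 0.000932) and 0.66 (adjusted p = 0.00576), and Fkbp5 and Sgk1 had changes of -0.04 each.

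Resist vs. Resist-Mac asks what macrophage depletion did in resistant tumors, with batch and table changing alongside it. It shares the Resist libraries with Resist vs. Naive. The sterol arm was lower in Resist here as well: 9 of 18 enzymes tested were called lower and none higher, compared with 12% of all 10049 genes called lower and 9.71% higher. One of the 9 is Tm7sf2, described below. The median log2 change, Resist over Resist-Mac, was -0.58 over the sterol enzymes and -0.02 over all genes. In the fatty acid arm limma called none of 14, and none was called by the noise-based probability. Of the 14, 3 had an adjusted p below 0.05 but a fold change below 1.5, all higher in Resist, and the median was 0.13.

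Idi1 measured 28.1, 30.9, 36.9, 18.2 and 23.2 FPKM in Resist-Mac libraries 1 to 5, all above the Resist libraries, and its change was -0.98 (SE 0.21, adjusted p = 0.00264). Library 4 came closest, at 18.24 FPKM beside 18.15 FPKM in Resist library 2. Msmo1 measured 66.1, 82.5, 101, 43.3 and 51.7 FPKM in Resist-Mac, with a change of -0.99 (SE 0.22, adjusted p = 0.00373), and Sqle measured 39.8, 32.8, 51.3, 33.9 and 46.3 FPKM, with a change of -0.60 (SE 0.17, adjusted p = 0.0125). Both overlapped the Resist libraries. Resist-Mac library 3 was the highest of its group for all 7 members called in Resist vs. Naive, and library 4 was the lowest for 5 of them. Fdps, Fdft1, Cyp51, Mvk and Mvd were called too, with changes of -0.68, -0.61, -0.65, -0.67 and -0.61. Tm7sf2 averaged 3.29 ± 1.25 FPKM (SD, n = 5) in Resist-Mac and passed the filter on low values only through that group, so it had to differ, and its change of -1.22 is given as a description.

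Of the control genes, Insig1 was called lower in Resist, with a change of -0.60 (SE 0.20, adjusted p = 0.0263). It measured 22.6, 28.5, 39.1, 20.5 and 24.6 FPKM in Resist-Mac and overlapped Resist. Srebf1 and Srebf2 averaged 27.9 ± 6.45 FPKM (SD, n = 5) and 54.7 ± 12.2 FPKM (SD, n = 5) in Resist-Mac, and their changes were 0.08 and 0.08, with intervals of -0.23 to 0.40 and -0.22 to 0.39. Fasn averaged 73.3 ± 20.1 FPKM (SD, n = 5), Scd1 5.51 ± 1.73 FPKM (SD, n = 5) and Scd2 364 ± 71.3 FPKM (SD, n = 5), with changes of 0.15, 0.47 and 0.29, none of them called.

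Without Resist-Mac library 3, 5 sterol enzymes were called lower, namely Fdps, Idi1, Msmo1, Mvk and Tm7sf2, and Scd1 of the fatty acid arm was called higher. Sqle and Insig1 then had changes of -0.52 and -0.46 and were not called. Without Resist-Mac libraries 2 and 3 together, an alternative chosen after seeing the data, 6 sterol enzymes were called, with Sqle at -0.58 and Insig1 at -0.38 not called. Without libraries 4 and 5 together 9 were called, Sqle among them. Tm7sf2 is in each of these counts. Msmo1 was at 82.5 and 101 FPKM in libraries 2 and 3 and at 43.2 and 51.7 FPKM in libraries 4 and 5.

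Markers of other cell types moved in this comparison too. The neutrophil sum was 391 to 8479 in Resist-Mac, with 5 of 8 markers called higher there, and its lowest value, 391, was that of library 3. Library 4, the lowest for 5 of the 7 members called in Resist vs. Naive, was at 2373. Libraries 1 and 5 were higher, at 8479 and 4732. Of the 8 markers, Ly6g averaged 0.71 FPKM in Resist and passed the filter on low values only through Resist-Mac. The macrophage sum was 34.96 to 796 in Resist-Mac and at most 50 in Resist. Nearly all of it was Lyz2, which averaged 304 FPKM of a mean sum of 309 FPKM in Resist-Mac. Lyz2 was called higher in Resist-Mac, with a log2 change, Resist over Resist-Mac, of -3.75 (adjusted p = 0.00563). Cd68 averaged 2.37 FPKM and Csf1r 1.13 FPKM in Resist-Mac, and the other macrophage markers measured there averaged below 1 FPKM. C1qa averaged 0.372 FPKM in Resist and 0.162 FPKM in Resist-Mac. The adipocyte sum was 206 to 305 in Resist-Mac, without overlap with Resist, and nearly all of it was 1 gene, Fabp4. Fabp4 was called, with -0.78 (adjusted p = 0.00155), whereas Adipoq averaged 0.17 FPKM and Cidec 0.062 FPKM in Resist-Mac. The epithelial sum was 420 to 625 in Resist-Mac, which overlapped Resist, and of the 4 members tested Krt8 was called higher in Resist, with 0.74 (adjusted p = 0.0353). The erythroid sum was 131 to 310, with no marker called. The part of any of these markers in the change was not tested.

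The comparisons across tables also carried a trend with transcript length. Across genes, the log2 change rose with the length of the longest annotated transcript, with a Spearman correlation of 0.155 in Resist vs. Naive. The same correlation was 0.642 for Resist vs. Resist-Mac, 0.709 for Naive vs. Naive-Mac and 0.607 for Resist-Mac vs. Naive-Mac. The members differ in length, with a median of 2998 bases over the 18 sterol enzymes and 4629 bases over the 14 fatty acid enzymes tested. Values were therefore also computed after a spline correction for transcript length and GC content within each library. In Resist vs. Naive the same 6 sterol enzymes and Insig1 stayed called after it, and Acsl3 was called as well with -0.60, compared with 1.63% of all genes called lower and 4.13% higher. Fasn went to -0.50 there (limma adjusted p = 0.00549), Srebf2 to -0.48 (0.00363), Srebf1 to -0.23 (0.0354) and Scd2 to -0.29 (0.0464). Each had a fold change below 1.5 and was not called. Scd1 went to 0.49 and Fads1 to 0.48, also not called. In Resist vs. Resist-Mac, 7 sterol enzymes stayed called lower, compared with 4.76% of all genes called lower and 4.02% higher. Tm7sf2, which passed the filter only through Resist-Mac, is 1 of the 7, and Mvk, Mvd and Insig1 were no longer called. Changes after correction were -0.78 for Idi1, -0.77 for Sqle and -0.82 for Msmo1. In the fatty acid arm the correction lowered the values: Fasn went from 0.15 to -0.54, with an adjusted p of 0.00596 and a fold change below 1.5, Acaca from 0.50 to -0.12, Scd2 from 0.29 to -0.03 and Scd1 from 0.47 to 0.27. Srebf1 and Srebf2 went to -0.10 and -0.22. None of these was called, and the directions of Fasn, Acaca, Scd2, Srebf1 and Srebf2 turned.

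**Figure D5:**
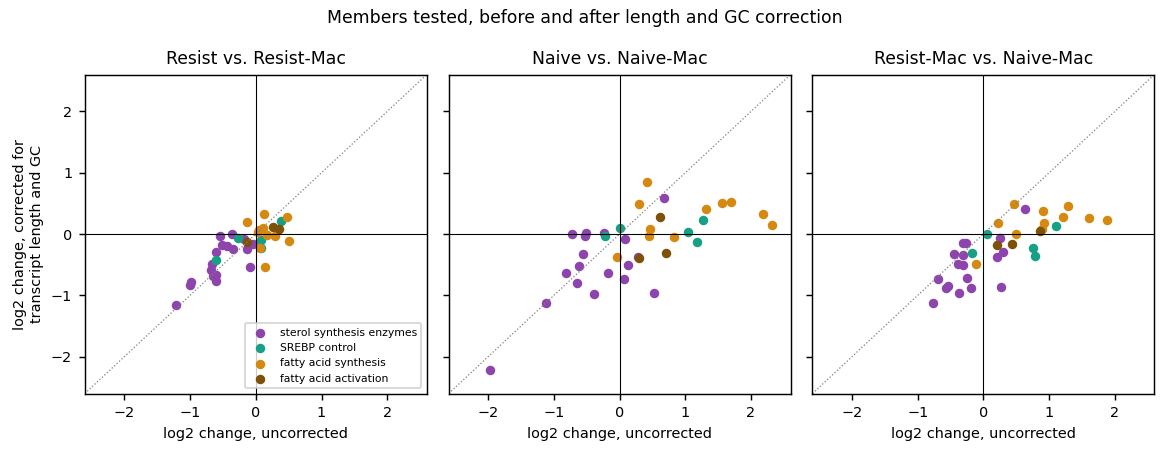
Log2 change of each member tested without correction (x axis) and after correction for transcript length and GC content (y axis), in the 3 comparisons across tables. The dotted line marks equal values. In both comparisons with Naive-Mac most fatty acid and control genes move toward 0, whereas 15 and 17 of the 18 sterol enzymes lie below 0 after correction.

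Naive vs. Naive-Mac puts untreated tumors beside depleted ones, across tables. Of the 18 sterol enzymes, 6 were called lower in Naive and 1 higher, whereas 22.1% of all 9837 genes were called lower and 37.5% higher. In the fatty acid arm 8 of 14 were called higher in Naive and none lower. The median over all genes was itself 0.23 and dropped to -0.02 with median-ratio scaling, and relative to the former the median was -0.69 over the sterol enzymes and 0.43 over the fatty acid enzymes. With median-ratio scaling 10 sterol enzymes were called lower and none higher, compared with 30.2% of all genes called in each direction. With quantile normalization 7 were called lower and none higher, compared with 29% of all genes lower and 26.7% higher. Each of these counts of sterol enzymes called lower includes Tm7sf2, which passed the filter only through Naive-Mac.

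Fasn measured 12.3, 23.7, 17.5, 21.0 and 20.5 FPKM in Naive-Mac libraries 1 to 5, far below every Naive library, with a change of 2.32 (SE 0.15, adjusted p = 1.05e-08). Acaca measured 1.30, 1.75, 2.10, 2.47 and 1.96 FPKM in Naive-Mac against 10.4 to 13.2 FPKM in Naive, with a change of 2.18 (SE 0.13, adjusted p = 4.81e-09). Scd2 averaged 155 ± 22.0 FPKM (SD, n = 5) in Naive-Mac, with a change of 1.69 (SE 0.10, adjusted p = 6.15e-09), and Scd1 averaged 2.41 ± 0.622 FPKM (SD, n = 5), with a change of 0.82 (SE 0.14, adjusted p = 0.000148). Their longest annotated transcripts run from 4832 to 10050 bases. After the length and GC correction the changes were 0.15 for Fasn, 0.33 for Acaca, 0.52 for Scd2 and -0.05 for Scd1, and none of the 8 stayed called. Elovl1, with 1811 bases, was then the only fatty acid gene called, with 0.85. Srebf1 averaged 12.4 ± 2.69 FPKM (SD, n = 5) and Srebf2 31.6 ± 7.19 FPKM (SD, n = 5) in Naive-Mac, with changes of 1.27 and 1.18 that became 0.23 and -0.13 after correction.

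In the sterol arm the correction changed which enzymes were called. Mvk, mevalonate kinase, measured 35.1, 36.4, 31.0, 38.4 and 37.0 FPKM in Naive-Mac and 12.8 to 19.6 FPKM in Naive, a change of -1.11 (SE 0.11, adjusted p = 7.23e-07) that was -1.13 after correction. Idi1 measured 55.5, 37.2, 34.0, 47.5 and 48.6 FPKM in Naive-Mac, above every Naive library, with a change of -0.82 and -0.63 after correction. Sqle measured 38.1, 34.6, 56.1, 54.5 and 51.3 FPKM in Naive-Mac, around the Naive libraries, with a change of 0.07 that became -0.73 after correction. Hmgcs1, the cytosolic HMG-CoA synthase, went the other way, with 13.0, 10.9, 16.02, 16.9 and 14.3 FPKM in Naive-Mac and a change of 0.68, which was 0.59 after correction but not called under median-ratio scaling, with 0.41. Insig1 averaged 30.2 ± 5.30 FPKM (SD, n = 5) in Naive-Mac, a change of 0.01 with an interval of -0.28 to 0.29. Tm7sf2, one of the 6 called lower, passed the filter only through Naive-Mac, where it averaged 6.11 ± 0.889 FPKM (SD, n = 5). After correction, 8 sterol enzymes were called lower in Naive and 1 higher, compared with 17.9% of all genes lower and 18.9% higher. Tm7sf2 was still 1 of the 8. Msmo1 and Pmvk lost the call, with -0.52 and -0.00, and Cyp51, Fdft1, Lss and Sqle gained it. The largest of these moves was that of Lss, which went from 0.53 to -0.96 and turned direction.

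Other cell types' markers moved here as well. The neutrophil sum was 58.6 to 6027 in Naive-Mac, and 2 of 8 markers, Ly6g and Elane, were called higher there. Its lowest value, 58.6, was that of library 2. That library was also the lowest Naive-Mac library for 5 of the 7 members called in Resist vs. Naive. Ly6g averaged 0.86 FPKM in Naive and passed the filter on low values only through Naive-Mac. The macrophage sum was 4.56 to 517 in Naive-Mac, around the range in Naive, and its 1 marker tested, Lyz2, was not called. Of the osteoblast and stromal markers only Col1a1 was tested, at 1.84 FPKM in Naive and 0.478 FPKM in Naive-Mac on average. It passed the filter only through Naive, so its call as higher in Naive, with 0.89, is a description. After the length and GC correction it was called in the other direction, with -0.68. The erythroid sum was 214 to 954, without overlap with Naive, and Hba-a1 was called higher in Naive-Mac, with a log2 change, Naive over Naive-Mac, of -2.13 (adjusted p = 9.21e-05). Fabp4 was called higher in Naive-Mac, with -0.86, and the adipocyte sum, nearly all of it Fabp4, was 139 to 235, which overlapped Naive. The epithelial sum was 859 to 1158, which also overlapped, and its members were called in both directions: Krt19 with -1.10 and Cldn3 with -0.95 were higher in Naive-Mac, and Krt8 with 0.67 was higher in Naive. The part of any of these markers was not tested.

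Resist-Mac vs. Naive-Mac compares enzalutamide with no enzalutamide among depleted tumors, in libraries that Resist vs. Naive does not use but in separate batches. Of the 18 sterol enzymes, 2 were called lower in Resist-Mac, Idi1 and Tm7sf2, and 1 higher, Hmgcs1, whereas 9% of all 9760 genes were called lower and 37.2% higher. In the fatty acid arm 8 of 14 were called higher and none lower. The median over all genes was 0.34 here and dropped to -0.01 with median-ratio scaling, and relative to the former the median was -0.65 over the sterol enzymes and 0.53 over the fatty acid enzymes. With median-ratio scaling 13 sterol enzymes were called, all lower in Resist-Mac, compared with 22% of all genes called lower and 23.6% higher.

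Idi1 changed by -0.69 (SE 0.18, adjusted p = 0.00506), with Resist-Mac at 18.2 to 36.9 FPKM and Naive-Mac at 34.0 to 55.5 FPKM, which overlapped. Without Resist-Mac library 4 its change was -0.56 and was not called. Hmgcs1 changed by 0.63 (SE 0.17, adjusted p = 0.00608), and Resist-Mac library 3 stood at 33.9 FPKM whereas the others were at 17.9 to 22.2 FPKM. With median-ratio scaling its change was 0.23, and without library 3 it was 0.48, and neither was called. Without Naive-Mac library 2 the call was lost too. Without Resist-Mac libraries 2 and 3 together, chosen after seeing the data, 5 sterol enzymes were called, all lower in Resist-Mac, and Hmgcs1 was not. Without Resist-Mac 4 and 5, or without Naive-Mac 1 and 4, 2 were called and Idi1 was not. Sqle changed by -0.19 and Msmo1 by -0.39, with intervals of -0.55 to 0.17 and -0.80 to 0.03.

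Fasn changed by 1.88 (SE 0.20, adjusted p = 4.99e-06), Acaca by 1.61 (SE 0.15, adjusted p = 2.37e-06), Elovl6, the elongase of palmitate, by 1.29 (SE 0.15, adjusted p = 1.23e-05), and Scd2 by 1.21 (SE 0.15, adjusted p = 1.62e-05). Srebf1 and Srebf2 changed by 1.10 and 0.78. After the length and GC correction none of the fatty acid genes was called by limma, with 6 at an unadjusted p below 0.05, and the changes were 0.22 for Fasn, 0.45 for Elovl6, 0.13 for Srebf1 and -0.37 for Srebf2. In the sterol arm 8 enzymes were then called, all lower in Resist-Mac, compared with 13.6% of all genes lower and 12.7% higher, among them Sqle with -0.89, Cyp51 with -0.72 and Fdps with -0.87. Msmo1 had -0.49 and was not called. Lss turned direction, from 0.27 to -0.86, and was called.

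Epithelial markers were lower in Resist-Mac than in Naive-Mac. Their sum was 420 to 625 and 859 to 1158, without overlap, and all 4 members tested had a log2 change below 0, with a median of -0.77, Krt8 with -0.86 and Cldn3 with -1.06 being called. Of the 2 macrophage markers tested, Lyz2 was not called and Cd68 was called higher in Resist-Mac, with 0.83 (adjusted p = 0.0270). Cd68 averaged 2.37 FPKM in Resist-Mac and 0.78 FPKM in Naive-Mac. It passed the filter on low values only through Resist-Mac, so its change is given as a description. The same holds for Col1a1, the only osteoblast and stromal marker tested, which was called higher in Resist-Mac, with 0.78. After the length and GC correction Col1a1 was at -0.55 and not called. The neutrophil sums overlapped widely, with none of the 8 markers called by limma and none at an unadjusted p below 0.05. The part of any of these markers was not tested.

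Over the 4 groups, mean levels of the 6 sterol enzymes called in Resist vs. Naive were lowest in Resist in each case. These 6 were picked for being lower in Resist than in Naive, so that part of the order was fixed and the order is a description. The depleted groups lie in other batches and tables, whose summed FPKM is higher. For Sqle the order was Naive at 48.6 FPKM, Naive-Mac at 46.9, Resist-Mac at 40.8 and Resist at 26.8, and each of the first 3 overlapped its neighbours. For Msmo1 it was Naive-Mac at 86.6 FPKM, Resist-Mac at 68.9, Naive at 55.8 and Resist at 33.3, and of the neighbours in that order Naive and Resist did not overlap. For Fasn it was Naive at 97.2 FPKM, Resist at 79.6, Resist-Mac at 73.3 and Naive-Mac at 19.0, and only Naive-Mac lay apart from the rest. Scd2 was the most abundant member per length in each group, from 499 FPKM in Naive to 155 FPKM in Naive-Mac.

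The cholesterol handling genes and Acacb were at or below about 1 FPKM in all groups. Abca1 averaged at most 0.058 FPKM in any group, Soat1 at most 0.660 FPKM and Acacb at most 0.572 FPKM. Abcg1 averaged 0.502 FPKM in Naive and 1.10 FPKM in Resist-Mac. None of the 4 passed the filter in any comparison.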

How the data were processed

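Expression was measured by paired-end sequencing (BGISEQ-500) of sorted CD45- iRFP+ tumor cells in 20 libraries, 4 groups of 5, in 3 tables. The authors deposited Naive and Resist libraries as log2 values, log2(FPKM + 1), and Resist-Mac and Naive-Mac libraries as FPKM. The submitters' processing notes name Bowtie2 and mm9. The quantifier and gene annotation are not given in the sources used here, and no column holds counts, so the depth is unknown. Levels of 0 may be failed estimates.

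Log2 values were turned back to FPKM, and 752 rows of predicted transcripts were left out. Genes averaging 1 FPKM or more over the libraries of a comparison were tested on log2(FPKM + 1) by limma 3.58.1 (R 4.3.3) with an intensity trend, only the libraries of the compared groups entering each fit. A gene was called at a Benjamini-Hochberg adjusted p below 0.05 over all genes tested and a fold change over 1.5. The study used NOISeq, which needs a noise distribution; a probability of the same kind, over 0.8, was recomputed as an alternative. Alternatives were another pseudocount, filter, scaling, fold, variance prior, a replicate block, all libraries in 1 fit, a spline (4 degrees of freedom) on transcript length and GC content (GENCODE vM21), and each library left out. After seeing the data, pairs of libraries left out together and the correction of the interaction were added. Fits were tested on simulated data first. The figures were drawn in Python 3.11.15.

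Members named with values per library were the SREBP genes, Insig1, Sqle, Fasn, Scd1 and Scd2, all members called in Resist vs. Naive, the 3 with the largest change in each arm, and in other comparisons the 3 largest calls per direction. The members, the gene and marker lists and this rule were chosen with earlier results of these data known.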

Additional observations from a re-analysis of the deposited data

Results flagged for a closer look

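In 3 of 76 groups of 5 libraries examined for the named members, 1 library stood apart from the others by Dixon's criterion, where chance gives about 1 in 20. Hmgcs1, the cytosolic HMG-CoA synthase, was at 33.85 FPKM in Resist-Mac library 3 and at 17.9 to 22.2 FPKM in the other Resist-Mac libraries. Fasn, fatty acid synthase, was at 59.31 FPKM in Resist library 2 and at 80.9 to 87.1 FPKM in the others. Elovl6, the palmitate elongase, was at 20.91 FPKM in Naive library 3 and at 18.1 to 18.5 FPKM in the others.

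The difference between resistant and naive tumors in the change with macrophage depletion (the log2 change of Resist over Resist-Mac minus that of Naive over Naive-Mac, limma interaction over all 20 libraries) passed both thresholds for 10 of 19 named members. It did so for 4015 of all 9876 genes, or 40.7%, and the 3 batches cannot be told apart from it. Many of the 19 were named for large changes or calls in these same libraries. Their share therefore cannot be compared with that of all genes, before or after the correction below. Among sterol and control genes it was -0.87 for Hmgcs1, -0.67 for Sqle, -1.19 for Srebf1, -1.10 for Srebf2 and -0.61 for Insig1, all on the log2 scale. Among fatty acid genes it was -1.68 for Acaca, -2.18 for Fasn, -1.40 for Scd2, -1.50 for Elovl6 and -0.75 for Acsl3. After the length and GC correction, an alternative chosen after seeing the data, Hmgcs1 with -0.68, Fasn with -0.76 and Elovl6 with -0.75 were still called among these 10, and Mvk and Tm7sf2 were called only then, which made 5 of 19, compared with 2376 of all 9854 genes, or 24.1%. The others were at -0.06 for Sqle, -0.37 for Srebf1, -0.13 for Srebf2, -0.51 for Insig1, -0.50 for Acaca, -0.57 for Scd2 and -0.43 for Acsl3 and were not.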

How the results depend on the processing

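Depth is unknown, so how far counting error limits low genes could not be computed. The 3 comparisons across tables carry batch and table with the condition. Of the counts recomputed under an alternative, 149 stayed within 1.5 times the reported count and 34 did not. Among values of named members 957 kept direction and call, 84 lost and 20 gained the call and 23 turned direction; unless stated, the cause was not tested. In Resist vs. Naive, the 6 sterol calls became 0 at a fold change over 2, by construction of a stricter threshold, and 2 without Resist libraries 3 and 4. Leaving out 1 library at a time gave 4 to 6, with Fdps and Fdft1 both lost without Resist 3, Resist 4 or Naive 4. Fdft1 alone was lost without Resist 1, and Fdps alone without Naive 5. The fatty acid count of 0 became 3 with a pseudocount of 0.1, 1 with median-ratio scaling, 2 with quantile normalization, 1 with the length and GC correction and 1 by noise probability, and 0 to 2 with 1 library left out: Scd1 was called without Resist 2, Naive 3 or Naive 4, Fads1 without Resist 3 or Naive 5, and Acsl3 and Fads1 without Resist 5.

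In Resist vs. Resist-Mac, the 9 sterol calls became 5 with quantile normalization, 1 at a fold change over 2 and 3 by noise probability. They became 5 to 10 with 1 library left out, the lowest without Resist-Mac 3. The 1 left at that fold was Tm7sf2, which passed the filter only through Resist-Mac and is also 1 of the 5 with quantile normalization. The fatty acid count of 0 became 2 with quantile normalization and 0 to 1 with 1 library left out, and 1 without Resist-Mac 2 and 3 and 1 without 4 and 5. In Naive vs. Naive-Mac, the 7 sterol calls became 2 at a fold change over 2 and 5 to 8 with 1 library left out. The 2 were Mvk and Tm7sf2, of which Tm7sf2 passed the filter only through Naive-Mac. The 8 fatty acid calls became 5 at that fold, 1 with the length and GC correction and 6 to 8 with 1 library left out. In Resist-Mac vs. Naive-Mac, the 3 sterol calls became 13 with median-ratio scaling, 6 with quantile normalization, 0 at a fold change over 2, 8 with the length and GC correction and 0 by noise probability, 2 to 4 with 1 library left out and 5 without Resist-Mac 2 and 3; the 8 fatty acid calls became 5, with median-ratio scaling, 4 at that fold, 0 with the length and GC correction and 8 to 9 with 1 library left out. The 10 members with a difference in the change with depletion became 5 with that correction. Alternatives with 2 libraries left out together were chosen after seeing the data.

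Of the 23 values that turned direction, 3 were of called members and 20 of members not called. The length and GC correction turned the 3 called ones, Srebf2 and Scd1 in Naive vs. Naive-Mac, to -0.13 and -0.0465, and Srebf2 in Resist-Mac vs. Naive-Mac, to -0.37. Of those not called, it turned Srebf1, Srebf2, Fasn and Scd2 in Resist vs. Resist-Mac, to -0.10, -0.22, -0.54 and -0.0269, and Sqle in Naive vs. Naive-Mac, to -0.73. Without Resist-Mac 2 and 3, Srebf1, Srebf2 and Fasn turned to -0.0647, -0.0423 and -0.0423 in Resist vs. Resist-Mac. With 1 library left out, Srebf1 ranged from -0.0485 to 0.16 and Srebf2 from -0.0403 to 0.18 there. In Naive vs. Naive-Mac, median-ratio scaling turned Sqle to -0.21 and Insig1 to -0.28, quantile normalization Insig1 to -0.0356 and the noise probability's log2 ratio Insig1 to -0.0027. With 1 library left out, Sqle ranged there from -0.0297 to 0.14 and Insig1 from -0.095 to 0.0661. Among called members outside the named ones, the correction also turned Acsl1 in Naive vs. Naive-Mac, from 0.70 to -0.32, and Scap in Resist-Mac vs. Naive-Mac, from 0.75 to -0.23.

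Over all genes, the share of calls that were higher was 82.6% in Resist vs. Naive, 69.5% with quantile normalization and 71.7% with the length and GC correction. It was 44.8% in Resist vs. Resist-Mac and 54.8% with quantile normalization. It was 62.9% in Naive vs. Naive-Mac and 47.9% to 51.3% under these 2 and median-ratio scaling, and 80.5% in Resist-Mac vs. Naive-Mac and 48.4% to 51.8% under them. Total calls fell from 2181 to 880, from 5868 to 3561 and from 4509 to 2560 with the length and GC correction in the 3 comparisons across tables. Fits with a replicate block gave the same counts, 6 and 0, 9 and 0, 7 and 8, and 3 and 8 for the sterol and fatty acid arms. Equal numbers did not pair the libraries: deviations of equally numbered Naive and Resist libraries correlated at -0.16 to -0.03, and the other comparisons held correlations of both signs.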
